A study of Mus musculus with 6 samples.

Results

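MHC class II molecules carry peptides from proteins taken up by a cell to its surface and show them to CD4+ T cells. An alpha and a beta chain are assembled on the invariant chain (Cd74), cathepsins cut the invariant chain down in the endosome, and the DM heterodimer exchanges its last piece for a peptide. Transcription of these genes depends on Ciita, a coactivator that does not bind DNA itself and is recruited to a shared promoter module of X and Y boxes by the RFX complex, CREB and NF-Y. Macrophages carry a low level of the pathway at rest and are known for raising it in response to interferon gamma. The 8 genes described are the chains H2-Aa, H2-Ab1 and H2-Eb1, the invariant chain Cd74, the DM chaperone genes H2-DMa, H2-DMb1 and H2-DMb2, and the transactivator Ciita. They were picked by gene symbol, with earlier results of these data known, and are 8 of 24394 symbols in the deposited transcript tables.

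Bone marrow-derived macrophages (BMMs) of C57BL/6 mice at postnatal day 28 were differentiated for 7 days with 50 ng/ml macrophage colony-stimulating factor. The 3 control cultures had no fragments added, and 3 stimulated cultures were kept for 24 h with cartilage fragments at a ratio of 5 per macrophage. The comparison asks which transcripts of macrophages differ when cartilage fragments, a product of worn joints, are present. The study's methods describe crushed femoral head cartilage from the same mice that gave the bone marrow, wild-type males, so fragments and cells share a source in both respects. No genetic change or added cytokine other than the growth factor is listed for either group. The number of mice behind the 6 libraries was not given, so the spread between libraries may be technical and the p-values measure only that spread.

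The libraries were similar in estimated size, with 699192 to 776322 fragments assigned to transcripts, and each value below carries the counting error of that depth. All 9 macrophage markers were present. Their sum was 29580 to 39300 FPKM (fragments per kilobase of transcript, scaled to the size of the library) in control and 30180 to 40430 FPKM in stimulated cultures, most of it Lyz2. Csf1r was at 612.8 ± 37.78 and 617.5 ± 52.38 FPKM (SD, n = 3). Neutrophil markers, mostly S100a9 and S100a8, summed to 783.3 to 913.9 FPKM in control and 731.4 to 1075.0 FPKM in stimulated cultures, so the purity of the cultures was not settled. Xist was at 19.82 to 23.59 FPKM, and Ddx3y, Eif2s3y, Kdm5d and Uty were listed at 0 in every library, which goes against the stated sex of the mice and holds for both groups alike. One line of H2-Eb1 was affected by how transcripts were assembled in control replicate 3 and stimulated replicate 2, which is described with that gene.

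Most members lie close together in the class II region of chromosome 17, while Ciita and Cd74 lie elsewhere. On mm10, H2-DMa spans chr17:34122832-34139101, H2-DMb2 chr17:34145416-34151095, H2-DMb1 chr17:34153191-34160229, H2-Ab1 chr17:34263227-34269418, and H2-Eb1 chr17:34305867-34316674, all on the plus strand. H2-Aa spans chr17:34282751-34287771 on the minus strand. Ciita lies on the plus strand of chromosome 16 at chr16:10480072-10527640. Each of the 8 is annotated as a protein-coding gene, and the values are sums over its listed transcripts, which hold exons only unless stated.

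The promoters are shown because the members share a known regulatory module. Some stood lower in stimulated cultures, while the means of others lay close to control. Whether these members differ in response was not settled by the tests described below. RefSeq promoter windows on GRCm38.p6, from 250 bases before to 50 after a start, were given for 5 of the 8 symbols, and H2-Ab1, Cd74 and Ciita had no entry. Both strands were searched for the Y box core ATTGG and the X box core, which was AG, any 2 bases, AC, any 2 bases and ATG run together. A longer form, AAC, any base, GATG and ATG run together, overlaps the X box core and was chosen after the windows had been read. The stretches below run 5′ to 3′ on the strand of the gene with matches in capitals, a reverse-strand match of the Y box core appearing as CCAAT. That of H2-DMb2 stops before bases that are exonic in GENCODE. That of H2-DMb1 was cut to 30 bases and leaves out its Y box core. GENCODE starts H2-DMb1 at base 34153072, so the printed bases lie after that start, in an annotated exon.
H2-Eb1, chr17:34305717-34305866, plus strand: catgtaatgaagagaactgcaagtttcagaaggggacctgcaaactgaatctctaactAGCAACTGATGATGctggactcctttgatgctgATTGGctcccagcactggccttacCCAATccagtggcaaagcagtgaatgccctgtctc
H2-Aa, chr17:34287824-34287973, minus strand: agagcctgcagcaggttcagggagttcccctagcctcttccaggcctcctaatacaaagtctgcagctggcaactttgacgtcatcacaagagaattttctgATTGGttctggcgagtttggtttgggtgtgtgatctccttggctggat
H2-DMb2, chr17:34145099-34145235, plus strand: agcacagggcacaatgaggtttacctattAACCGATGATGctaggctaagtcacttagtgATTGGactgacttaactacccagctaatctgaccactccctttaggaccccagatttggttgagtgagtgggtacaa
H2-DMb1, chr17:34153096-34153125, plus strand: AGTAACTGATGATGctaggctgattcactc

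H2-Eb1 and H2-DMb1 held the X box core, at bases -92 to -82 and -95 to -85 before the start, and 2.6% of 32851 windows in the table held it. The longer letters stood in H2-Eb1, H2-DMb1 and H2-DMb2, followed after 19, 20 and 20 bases by the Y box core, and in 0.0487% of all windows. These 3 are among 14 genes with such a window. The Y box core alone is common, at 33.8% of windows, and was the only match in H2-Aa, at bases -48 to -44. An X box with other letters would have been missed, so the lack of a match does not show that H2-Aa is without one. Of the 2 windows of H2-DMa, the first held no match and the second held the Y box core at bases -198 to -194. H2-Eb1, which fell, and H2-DMb1, whose stimulated mean was 96.33% of control, thus both held the longer X box form and a Y box core, while their X box cores were not identical and H2-Eb1 also held a reverse-strand Y box core. The match is a description of letters and says nothing of what was bound there.

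Cartilage fragments were accompanied by lower levels of the class II chains and of the invariant chain, while the means of the DM genes lay close to their control level. Of the 8 members, 3 passed the test with a lower level (Cd74, H2-Ab1 and H2-Eb1; limma on log2(FPKM + 0.1), two-sided, Benjamini-Hochberg adjusted p under 0.05), against 0.0577% of 10393 genes tested that passed in that direction. Since the set was picked with results known, this count is not independent evidence of its direction. None passed with a higher level, against 0.308% of genes, and 0.366% passed in either direction. In 5 of the 8 (the 3 above, H2-Aa and Ciita) the stimulated values all lay below the control values, against 6.89% of genes. In none did they all lie above, against 9.04% of genes, and groups without overlap in either direction made up 15.9%. The fitted log2 fold change was below 0 for all 8, as it was for 49.5% of genes. The median log2 fold change of the members was -0.61, and that of all tested genes was 0.0037. The summed level of the 8 was 889.8, 882.6 and 813.5 FPKM in control macrophages and 551.6, 535.2 and 490.1 FPKM in stimulated macrophages, or 60.98% of control on average. In bulk RNA, fewer cells with class II transcripts and a lower amount per cell cannot be told apart.

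**Figure D1:**
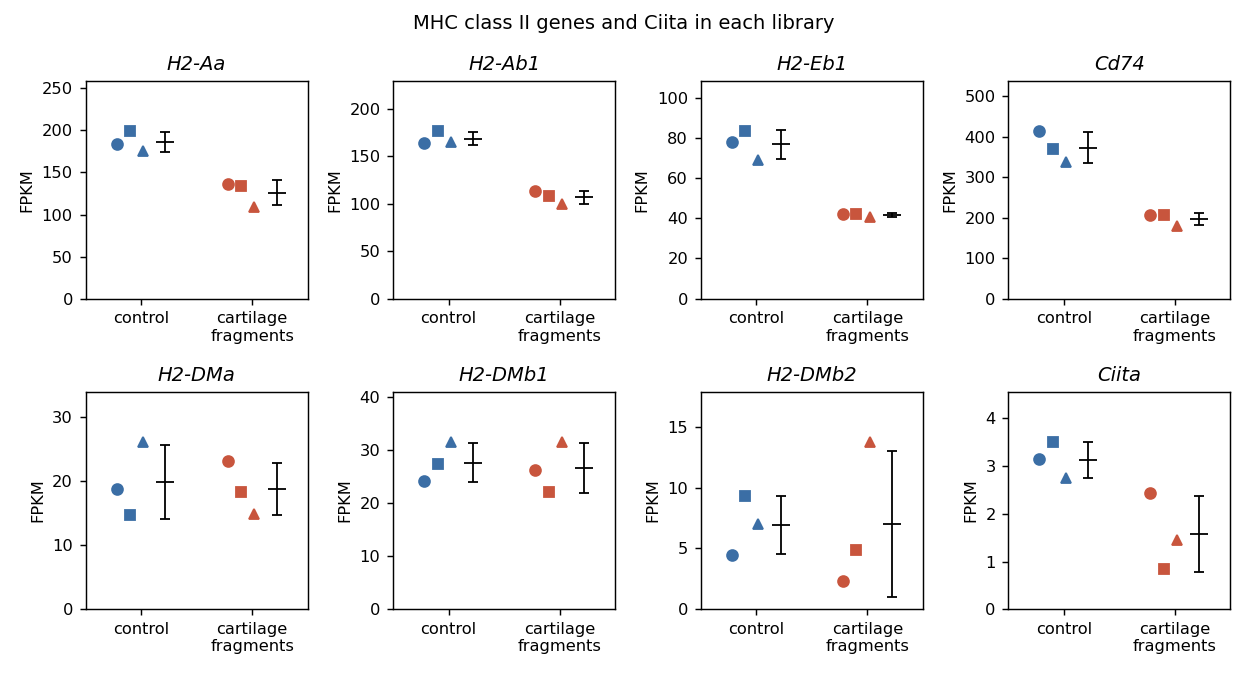
FPKM of each member (y axis, linear from 0) in the 3 control and 3 cartilage fragment libraries, with circles, squares and triangles for replicates 1, 2 and 3 and bars for the mean ± SD (n = 3). The chains, Cd74 and Ciita lie lower in every stimulated library, and the 3 DM genes overlap between the groups.

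Cd74, the invariant chain on which class II dimers are built, was the most abundant member and had the smallest p. It lies on the plus strand at chr18:60803849-60812652 of mm10. Its level was 413.3, 368.9 and 336.5 FPKM in control macrophages and 206.3, 205.7 and 179.2 FPKM in stimulated macrophages. The highest stimulated library was far below the lowest control library, and the mean fell from 372.9 ± 38.53 to 197.1 ± 15.44 FPKM (SD, n = 3). The log2 fold change was -0.92 with a standard error of 0.0983 and an adjusted p of 0.009652 by limma. Without stimulated replicate 1 the adjusted p was 0.06138, and without any other single library Cd74 still passed. Counted as fragments, 882 in the control libraries and 446 in the stimulated libraries were estimated, a ratio after scaling by depth of 0.5289 with a 95% exact interval of 0.4709 to 0.5934 that covers counting error only.

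Of the 3 chains, H2-Ab1 encodes the beta chain of the I-A molecule. It was at 164.4, 176.6 and 164.9 FPKM in control macrophages and at 113.2, 108.0 and 99.67 FPKM in stimulated macrophages. The groups were well separated and the spread within each was small, and the mean fell from 168.6 ± 6.871 to 107.0 ± 6.815 FPKM (SD, n = 3). The log2 fold change was -0.66 with a standard error of 0.08898 and an adjusted p of 0.03044 by limma. The call was lost when any 1 library was left out, with adjusted p-values of 0.08481 to 0.117.

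H2-Aa encodes the alpha chain that pairs with H2-Ab1. Its level was 183.5, 199.0 and 176.0 FPKM in control macrophages and 135.8, 133.4 and 109.0 FPKM in stimulated macrophages. All stimulated libraries were below all control libraries, yet the log2 fold change of -0.57 with a standard error of 0.1092 did not pass over all genes (limma adjusted p = 0.1128). Its 95% interval, -0.82 to -0.32, took in the change of H2-Ab1. When fragments scaled by library total replaced FPKM, H2-Aa passed (limma adjusted p = 0.01057). On that scale 4 of the 8 members passed with a lower level, against 0.741% of genes, and none with a higher level, against 1.55% of genes (2.29% in either direction).

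H2-Eb1 encodes the beta chain of the I-E molecule. Its partner gene is defective in C57BL/6 mice, and the pseudogene entry H2-Ea-ps was listed at 0 in all 6 libraries. H2-Eb1 was at 78.13, 83.24 and 68.73 FPKM in control macrophages and at 42.25, 41.97 and 40.52 FPKM in stimulated macrophages. The stimulated values were nearly identical and lay well below the lowest control value, and the mean fell from 76.7 ± 7.363 to 41.58 ± 0.9261 FPKM (SD, n = 3). The log2 fold change was -0.88 with a standard error of 0.1213 and an adjusted p of 0.03054 by limma, and leaving out any 1 library took the adjusted p to between 0.05214 and 0.1542.

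These values of H2-Eb1 rest on adding an assembled line to the reference line. In control replicate 3 and stimulated replicate 2 the authors' Cufflinks run reported a second transcript under the gene, at chr17:34309531-34316674 and chr17:34309529-34316674. It lacked exon 1, of 181 bases, held the 1488 bases of exons 2 to 6, and began with 60 or 62 bases of intron 1. It carried 23.3611 and 33.1634 FPKM in these libraries, from 23 and 32 estimated fragments. The reference line alone was at 78.13, 83.24 and 45.37 FPKM in control macrophages and at 42.25, 8.803 and 40.52 FPKM in stimulated macrophages. On that line alone the groups still did not overlap, but the spread was much wider and the test was not passed, with a log2 fold change of -1.42, a standard error of 0.6763 and a limma adjusted p of 0.7793. Whether a transcript with an alternative start is present was not tested.

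Cd74 was itself the sum of a pair of reference transcripts. NM_010545, of 1223 bases, was at 364.1, 327.0 and 289.2 FPKM in control and at 177.6, 163.0 and 179.2 FPKM in stimulated macrophages. The longer NM_001042605, of 1415 bases and known to encode a form with an added thyroglobulin domain, was at 49.22, 41.92 and 47.3 FPKM in control and at 28.68, 42.72 and 0 FPKM in stimulated macrophages. It made up 11.91, 11.36 and 14.06% of Cd74 in control and 13.91, 20.77 and 0% in stimulated macrophages. The shorter form was thus lower in every stimulated library, and no difference in the share was detectable (difference of means -0.88 percentage points, exact two-sided permutation p = 0.9, n = 3, where 0.1 is the smallest possible). The 0 in stimulated replicate 3 decided the sign, since without that library the difference was 4.895 percentage points.

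**Figure D2:**
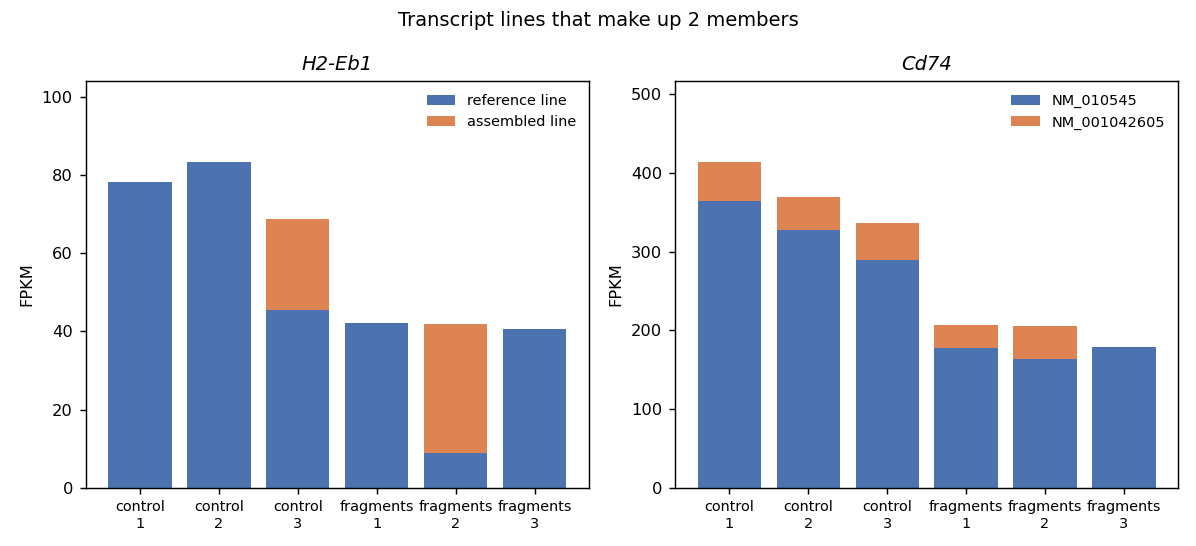
FPKM of H2-Eb1 and Cd74 in each library (stacked bars from 0), divided into the transcript lines that were summed. The assembled line of H2-Eb1 appears in control replicate 3 and stimulated replicate 2, and the sum shows the lower level that the reference line alone blurs.

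The DM genes encode the heterodimer that exchanges the last invariant chain fragment for a peptide, with H2-DMa as the alpha chain. H2-DMa was at 18.79, 14.75 and 26.17 FPKM in control macrophages and at 23.13, 18.33 and 14.94 FPKM in stimulated macrophages. The groups overlapped throughout, and the log2 fold change was -0.06 with a 95% interval of -0.66 to 0.53 (limma adjusted p = 0.9636). From 65 and 60 estimated fragments in the groups, a fall as large as that of H2-Eb1 lay outside this interval and one of the size of H2-Aa lay inside it.

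H2-DMb1, the main beta chain of DM, was at 24.09, 27.34 and 31.46 FPKM in control macrophages and at 26.21, 22.12 and 31.53 FPKM in stimulated macrophages. The lowest and the highest value both came from stimulated libraries. The log2 fold change was -0.06 with a 95% interval of -0.49 to 0.37 (limma adjusted p = 0.9483). On FPKM that interval does not reach the estimated changes of Cd74 or of any of the 3 chains. On fragments the ratio was 0.9679 with a 95% exact interval of 0.674 to 1.388 for counting error only, which took in the 0.681 of H2-Aa. A difference between the changes of H2-DMb1 and H2-Aa was thus not settled. H2-DMb2, a second beta chain gene, was at 4.472, 9.276 and 7.004 FPKM in control macrophages and at 2.329, 4.852 and 13.74 FPKM in stimulated macrophages. With 9 estimated fragments in each group its 95% interval ran from -1.68 to 1.10, wide enough to take in the change of every other member, and no difference was detectable at this depth. Its deposited line has 786 bases where the GENCODE transcript has 1424, and 13.51% of 100-base windows of that transcript also occur in H2-DMb1, so reads may have been divided between these neighbours and both values are uncertain to that extent. Summed, the 3 DM genes were at 54.45 ± 9.048 FPKM in control and 52.39 ± 7.479 FPKM in stimulated macrophages (SD, n = 3).

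Ciita, the transactivator, was the least abundant member. Its level was 3.144, 3.499 and 2.739 FPKM in control macrophages and 2.432, 0.8455 and 1.456 FPKM in stimulated macrophages. The groups did not overlap, and the mean was 3.127 ± 0.3802 FPKM against 1.578 ± 0.8 FPKM (SD, n = 3). The log2 fold change of -1.05 did not pass, with a standard error of 0.498, a 95% interval of -2.20 to 0.10 and a limma adjusted p of 0.5821. The values rest on 12, 13 and 10 fragments against 9, 3 and 5, a ratio of 0.508 with a 95% exact interval of 0.2669 to 0.9315 for counting error only. Ciita has several alternative first exons, used in different cell types, and all of its signal was placed on 1 of 5 listed transcripts, NM_001243761, which starts at base 10489781 of chromosome 16. In GENCODE 97.88% of the exonic bases of the transcript from that start are shared with the transcripts from the other 2 starts, which leaves 84 bases to tell them apart, so the start in use could not be settled from these values.

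**Figure D3:**
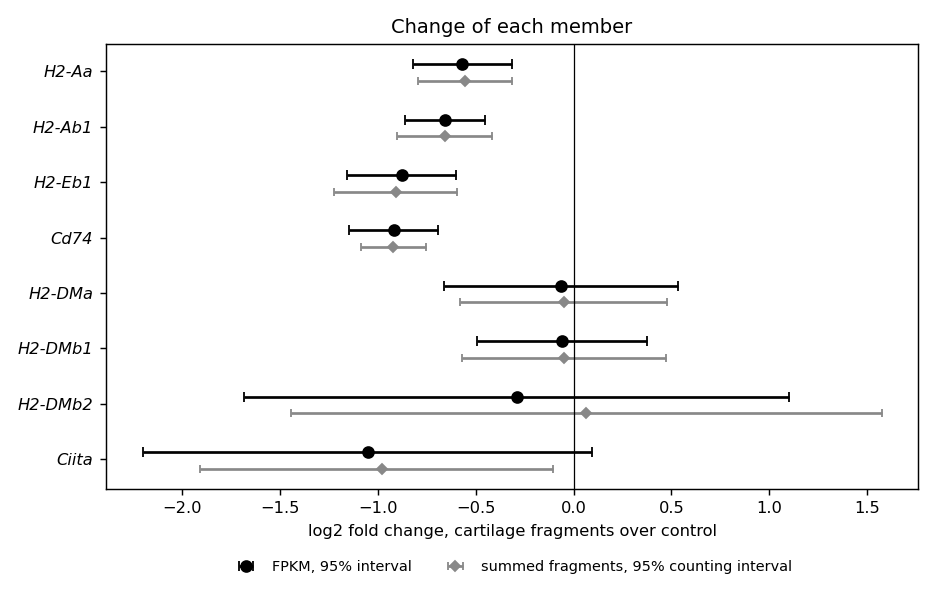
Log2 fold change of each member (x axis), stimulated over control, as estimated by limma on log2(FPKM + 0.1) with its 95% interval (black) and as the depth-scaled ratio of summed fragments with a 95% interval for counting error only (grey). The intervals of H2-Aa, H2-Ab1, H2-Eb1 and Cd74 lie below 0 on both scales, those of the DM genes cross 0, and that of Ciita crosses 0 on FPKM only.

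Per length of transcript, the order of mean FPKM was the same in both groups: Cd74, H2-Aa, H2-Ab1, H2-Eb1, H2-DMb1, H2-DMa, H2-DMb2 and Ciita. Cd74 stood 2.003 times above H2-Aa in control and 1.563 times above it in stimulated macrophages. The ranges of H2-Aa and H2-Ab1 overlapped in both groups, as did those of H2-DMb1 and H2-DMa, and those of H2-DMb2 and Ciita overlapped in stimulated macrophages. H2-Eb1 stood 2.776 times above H2-DMb1 in control and 1.562 times above it in stimulated macrophages, so the step between the chains and their peptide-exchange factor was smaller there.

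Ratios within a library do not depend on its depth, and 6 were compared, each by an exact two-sided permutation test that cannot give less than 0.1 with 3 against 3. The 3 DM genes over the 3 chains stood at 0.1111, 0.112 and 0.1578 in control macrophages and at 0.1774, 0.1599 and 0.2416 in stimulated macrophages. All stimulated libraries were higher, by 0.60 on the log2 scale (exact p = 0.1, adjusted over the 6 ratios 0.2). Cd74 over the 3 chains was at 0.9701, 0.8043 and 0.8216 in control and at 0.7083, 0.7259 and 0.7193 in stimulated macrophages, lower in all by 0.26 on the log2 scale (exact p = 0.1, adjusted 0.2). H2-Eb1 over H2-Ab1 was at 0.4752, 0.4715 and 0.4168 in control and at 0.3733, 0.3885 and 0.4065 in stimulated macrophages, again without overlap (exact p = 0.1, adjusted 0.2). These 3 ratios reached the smallest p the design allows, which is not under 0.05. For 2 of them the separation depended on the assembled line of H2-Eb1. On reference lines alone Cd74 over the chains was at 0.9701, 0.8043 and 0.8713 in control and at 0.7083, 0.8221 and 0.7193 in stimulated macrophages, with overlap (exact p = 0.2). H2-Eb1 over H2-Ab1 was then at 0.4752, 0.4715 and 0.2751 against 0.3733, 0.08149 and 0.4065, also with overlap, and its log2 difference moved from -0.22 to -0.77 (exact p = 0.5). With scaled fragments the groups of H2-Eb1 over H2-Ab1 overlapped as well (exact p = 0.2). The DM genes over the chains were higher in all stimulated libraries on reference lines and with scaled fragments. H2-Aa over H2-Ab1, the partners of I-A, was at 1.103 ± 0.03184 in control and 1.176 ± 0.07353 in stimulated macrophages with overlap (SD, n = 3, exact p = 0.3). H2-DMa over the DM beta genes overlapped likewise, with a log2 difference of 0.0043 (exact p = 1.0). Ciita over the chains overlapped too, at 0.007381, 0.007627 and 0.006687 in control and 0.00835, 0.002984 and 0.005843 in stimulated macrophages (exact p = 0.4), so a difference between the change of Ciita and that of the chains was not detectable.

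**Figure D4:**
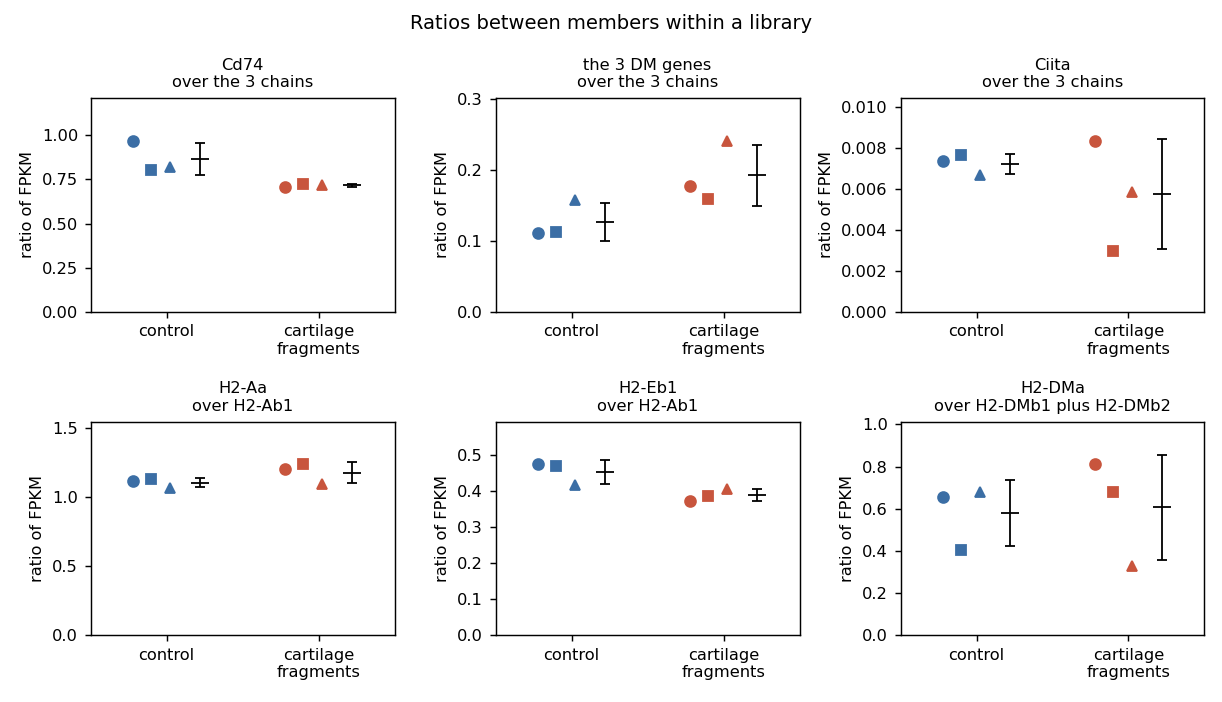
Ratios of FPKM between members within each library (y axis, linear from 0), with circles, squares and triangles for replicates 1, 2 and 3 and bars for the mean ± SD (n = 3). The DM genes over the chains are higher in all stimulated libraries, Cd74 over the chains and H2-Eb1 over H2-Ab1 are lower in all (both overlap on reference lines alone), and the other 3 ratios overlap.

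The other genes of the pathway were taken from lists of 65 symbols, of which 58 were in the files and 52 were tested. March1 and March8, each listed under an older and a newer name, were not matched and are outside these counts. The symbols 1-Mar and 8-Mar, which may be these genes, had log2 fold changes of 0.41 and 0.30 (limma adjusted p = 0.5908 and 0.6478). On FPKM only Socs3 passed, with a higher level (0.308% of all genes), none passed with a lower level (0.0577%), and the median log2 fold change was 0.04. With scaled fragments 8 of the 52 passed, 2 of them lower (Ctss and Lgmn), against 2.29% of all genes in either direction. Socs3, a feedback inhibitor of cytokine receptor signalling, was at 3.613, 3.185 and 5.933 FPKM in control and at 18.12, 17.23 and 14.35 FPKM in stimulated macrophages (log2 fold change 1.98, limma adjusted p = 0.03223). The call was lost without control replicate 1 or 2 or stimulated replicate 1 or 2. Among the 13 tested genes that act upstream of Ciita, those for the interferon gamma receptor and its transcription factors were close to their control level. Spi1, the macrophage factor PU.1, was at 308.3 ± 15.13 FPKM in control and 306.0 ± 7.611 FPKM in stimulated macrophages, and Ifngr1, the ligand-binding receptor chain, at 172.2 ± 3.382 and 188.5 ± 15.49 FPKM. Irf8 was at 49.76 ± 5.134 and 49.93 ± 5.135 FPKM, and Irf1 at 42.33 ± 4.53 and 43.7 ± 5.073 FPKM (SD, n = 3 each).

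The factors that bind the X and Y boxes and the acetyltransferase coactivators Kat2b, Ep300 and Crebbp were listed together. They gave no call in either direction among 10 tested genes, against 0.366% of all genes. At that share no call is likely among any 10 genes, so the count says little of these factors. Their groups overlapped in every case, where 15.9% of all genes had groups without overlap, and their median log2 fold change was -0.06. Nfya, an NF-Y subunit, was at 43.76 ± 4.24 FPKM in control and 40.96 ± 4.236 FPKM in stimulated macrophages. The RFX subunit genes were sparse, with Rfx5 at 3.105 ± 0.9591 and 4.344 ± 1.288 FPKM, Rfxap at 6.804 ± 2.98 and 5.011 ± 1.547 FPKM and Rfxank at 2.03 ± 0.4492 and 2.357 ± 0.3291 FPKM (SD, n = 3 each), so that a change of moderate size in them was not detectable at this depth.

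Of the 14 tested genes of processing and turnover, none passed on FPKM (0.366% of all genes did), and the median log2 fold change was -0.05. In 3 the stimulated values all lay above the control values, against 9.04% of genes. In 4 they all lay below, against 6.89% of genes. With scaled fragments 3 passed with a higher level (1.55% of genes) and 2 with a lower level (0.741%). Ctss, the cathepsin that makes the last cuts of the invariant chain, was at 4099.0, 4149.0 and 4022.0 FPKM in control and at 3769.0, 3588.0 and 3689.0 FPKM in stimulated macrophages, lower in all with a log2 fold change of -0.15 (limma adjusted p = 0.1312). Lgmn, the asparaginyl endopeptidase, was at 432.3, 440.4 and 472.9 FPKM in control and at 363.9, 365.2 and 347.6 FPKM in stimulated macrophages, also without overlap (log2 fold change -0.32, limma adjusted p = 0.1183). With scaled fragments both passed, at limma adjusted p-values of 0.002304 and 0.001974. Sppl2a, the protease that removes the remaining membrane stub of the invariant chain, was at 35.77 ± 1.139 and 46.48 ± 4.378 FPKM (SD, n = 3), higher in all stimulated libraries, and passed with scaled fragments only (limma adjusted p = 0.04785 against 0.4228 on FPKM). Ctsz had 1029.0 to 1044.0 FPKM in control and 2542.0, 2322.0 and 1115.0 FPKM in stimulated macrophages, but its log2 fold change was 0.86 on FPKM and 0.20 on fragments, so the size of its difference depended on the unit. Cd82 was at 52.53 ± 10.8 and 84.27 ± 16.34 FPKM (SD, n = 3), higher in all stimulated libraries. It passed with scaled fragments only (limma adjusted p = 0.01842 against 0.2669 on FPKM). Ctsb and Rab7 were lower in all, at 93.86% and 88.06% of their control means, and passed on neither scale. Ctsd was at 90.91% and did not pass, and Lamp1, a membrane protein of the lysosome, was at 96.41%.

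MHC class I, which presents peptides made inside the cell, was listed for comparison. None of its 9 tested genes passed on FPKM, against 0.366% of all genes. Their median log2 fold change was 0.16, with 7 of 9 means higher, where all 8 class II means on the log2 scale were lower. B2m, the light chain, was at 2443.0, 2553.0 and 2406.0 FPKM in control and at 2744.0, 2820.0 and 2725.0 FPKM in stimulated macrophages, higher in all (log2 fold change 0.16, limma adjusted p = 0.1547). H2-K1 was also higher in all (log2 fold change 0.25, limma adjusted p = 0.2277), and H2-D1 was lower in all (log2 fold change -0.22, limma adjusted p = 0.4228). B2m and H2-K1 passed with scaled fragments, and H2-D1 did not. The 5 genes listed as costimulatory, one of them (Cd274) coinhibitory, gave no call on either scale. Of all genes 0.366% passed on FPKM and 2.29% with scaled fragments. Cd86, Cd40 and Icosl were higher in every stimulated library, against 9.04% of all genes. Cd86 rested on 9 fragments in control and 25 in stimulated libraries, and Cd40 on 4 and 15. Icosl was at 4.09, 5.257 and 4.809 FPKM against 8.444, 9.908 and 11.37 FPKM (log2 fold change 1.05, limma adjusted p = 0.1469). Cd274 and Cd80 overlapped between the groups, with Cd80 at 75.07% of its control mean.

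**Figure D5:**
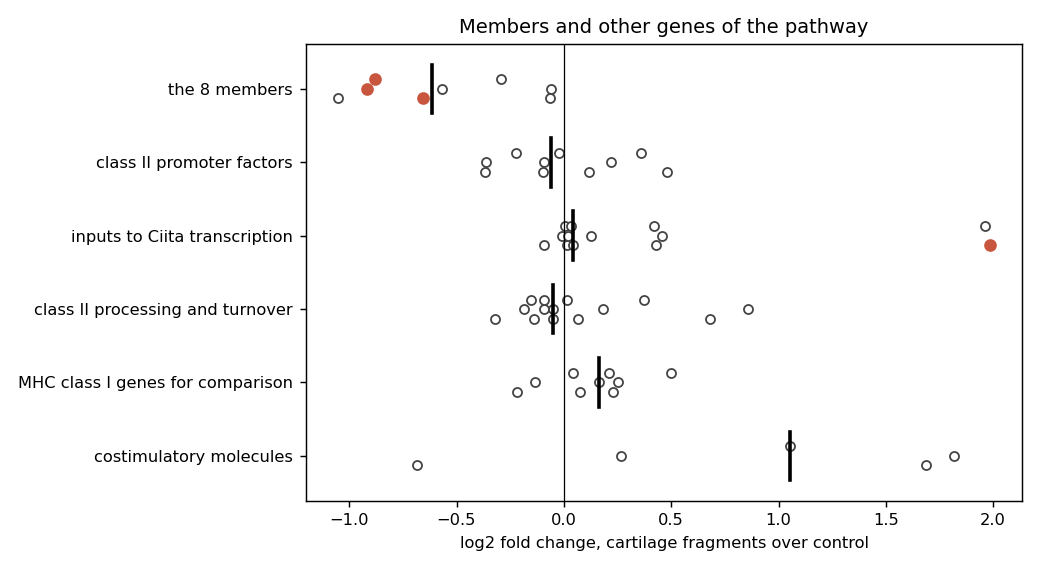
Log2 fold change (x axis), stimulated over control, of the tested genes matched in the class II lists, with a row for each list. Points are filled where the limma adjusted p was under 0.05, and a black bar marks the list median. The 8 members lie below 0 with 3 filled points, and Socs3 is the only filled point of the other lists.

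Of the remaining class II region, H2-Ob, H2-Eb2, H2-Ea-ps and Btnl2 were listed at 0 in all libraries, and H2-Oa, the partner of H2-Ob in the DO molecule that restrains DM, rested on 1 fragment in stimulated replicate 1. Brd2, a chromatin reader whose gene lies in the same region, was at 49.63 ± 0.9862 FPKM in control and 50.14 ± 3.214 FPKM in stimulated macrophages (SD, n = 3).

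Dendritic cells and B cells carry class II at much higher levels than macrophages, and their markers were read for that reason. Of the 10 dendritic cell markers Flt3, Cd209a and Kit were at 0 in all libraries, and the summed level was 77.99 to 92.89 FPKM in control and 70.66 to 80.4 FPKM in stimulated macrophages, almost all of it Itgax, which macrophages share. Of the B cell markers Ms4a1, Cd79a, Pax5, Fcer2a and Blk were at 0 in all libraries, and the sum was 17.16 to 21.04 FPKM against 15.11 to 20.41 FPKM. Most of it was Cd22, at 15.57 ± 1.26 FPKM in control and 15.15 ± 1.217 FPKM in stimulated macrophages (SD, n = 3). Cd79b rested on 8 fragments in control and 6 in stimulated libraries, and Ebf1 on 3 and 1. Chondrocyte markers, which would come with RNA from the fragments, summed to 1.535 to 4.22 FPKM in control and 1.183 to 2.816 FPKM in stimulated macrophages. Of the macrophage markers, Adgre1 and Cd14 rose (limma adjusted p = 0.009652 and 0.03882), opposite to the class II chains.

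Across the 6 libraries H2-Aa, H2-Ab1, H2-Eb1 and Cd74 each had a Pearson correlation of 0.9576 to 0.9891 with the sum of the other members, Ciita one of 0.7998, and the DM genes ones of -0.008577 to 0.08543. These points share the group difference and the library, and the values are a description. The 5 genes among 5518 whose levels were most like the summed members over the 6 libraries were C77080, Naa50, Col4a3bp, Mfsd6 and Fam175b, with Pearson correlations of 0.995, 0.9848, 0.9805, 0.9769 and 0.9764. C77080 was at 44.43 ± 2.573 FPKM in control and 28.18 ± 2.559 FPKM in stimulated macrophages (SD, n = 3). All 5 were lower in every stimulated library and none passed the test.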

How the data were processed

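Paired-end RNA-seq (100 bp, TruSeq Stranded mRNA) of 3 control and 3 stimulated cultures was used, grouped by the labels. The authors used TopHat with Bowtie for alignment to mm10 and Cufflinks for each library, and the deposited FPKM are values per transcript and library, with reference and newly assembled transcripts. Versions were not given in the sources used here. The methods name TMM and removal of low FPKM, but low values were present and the scaling could not be told from the values. The deposited coverage, a signal of mean read depth per transcript, gave estimated fragments, of which 93.44 to 94.29% of low values were within 0.1 of a whole number. The libraries' estimated totals are far below the read number in the methods, and the cause was not tested.

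FPKM were summed per symbol. An assembled transcript took the symbol of the reference transcripts that shared its gene identifier. The rest, 7.03 to 10.38% of FPKM, were left out. Symbols whose mean reached 1 FPKM over the libraries were fitted by limma 3.58.1 in R 4.3.3 (lmFit, eBayes with trend and robust) on log2(FPKM + 0.1), two-sided, with Benjamini-Hochberg adjustment over 10393 genes. Fold changes are on that scale, which understates the change of low genes. The fit was tested on simulated data that held counting error only, without further spread between libraries. Ratios were tested exactly with Python 3.11.15 and scipy 1.17.1. Intervals on fragments cover counting error only. Positions and exons were read from GENCODE, on the same build, and promoters from RefSeq.

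The members and lists were chosen with earlier results of these data known. Named were all 8 members, genes of each list past the threshold, up to 6 of the most abundant per list, and the 5 genes most alike. Lgmn, Sppl2a, Cd82, Rab7, the RFX subunit genes and the genes listed at or near 0 were named after their values were seen. One listed marker gene is not reported here. The alternatives were other pseudocounts, filters, scalings, fits and units, and leaving out each library.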

Additional observations from a re-analysis of the deposited data

How the results depend on the processing

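Of the 3 members that passed with a lower level, Cd74 passed under 16 of 19 alternatives and H2-Ab1 and H2-Eb1 under 10 of 19 each, and the direction of all 3, of H2-Aa and of Ciita was the same under each alternative that could be fitted. The number of members past the threshold was 0 with eBayes without trend and robust, 0 with reference transcripts only, and 0 to 1 when a library was left out, the 0 being without stimulated replicate 1. With the replicate number as a block it was 1. Deviations of same-numbered libraries correlated at -0.0926, 0.0673 and 0.0302, and those of different-numbered libraries at -0.146 to 0.107. No pairing was stated, and values this small cannot decide whether the numbers pair the libraries. Of the other genes of the pathway, 0 passed with eBayes without trend and robust, with reference transcripts only and with the replicate block, 8 passed with scaled fragments (2.29% of all genes did), and 0 to 1 when a library was left out. Ciita had too low a level for the filter at 5 FPKM.

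The log2 fold change of H2-DMa ranged from -0.2598 to 0.1519 when a library was left out, above 0 without control replicate 3 and (0.0889) without stimulated replicate 3. That of H2-DMb1 ranged from -0.1895 to 0.0654, above 0 without control replicate 3 and without stimulated replicate 2, and that of H2-DMb2 from -0.956 to 0.299, above 0 without stimulated replicate 1. The log2 ratio of H2-DMa over the DM beta genes was -0.0015 with scaled fragments and ranged from -0.2542 to 0.3942 when a library was left out. The difference in the share of the longer Cd74 transcript ranged from -5.489 to 4.895 percentage points. The cause was not tested for any of these. Depth limits Ciita and H2-DMb2 most, with at most 13 and 6 fragments per library.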
